A study of Mus musculus with 9 samples.

Results

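Cadherins and related neural adhesion molecules were examined in the forebrain of mice given an antipsychotic drug. Members were taken by symbol: cadherins, protocadherins, neurexins, neuroligins, Ncam genes, contactins and their associated proteins, Eph receptors, ephrins, and the immunoglobulin-type molecules L1cam, Chl1, Nrcam, Nfasc, Alcam, Thy1 and Cadm1. A member needed a probe set, the group of short probes that reads a transcript, annotated with exactly 1 gene symbol, and each gene was read by its probe set with the highest mean over the 9 arrays. The rule found 60 probe sets of 44 genes, of 8251 genes with such an annotation on the Affymetrix U74Av2 array. They were 13 cadherins, 2 protocadherins, 4 contactins or contactin-associated proteins, 8 immunoglobulin-type molecules, 9 Eph receptors and 8 ephrins. No neurexin, neuroligin or Nfasc entered under this rule, and 8 probe sets of the protocadherin alpha cluster carried several symbols and so gave no members.

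Clozapine mice received 12 mg/kg/day of this atypical antipsychotic and haloperidol mice 1.6 mg/kg/day of this typical antipsychotic, a dopamine receptor blocker, while control mice went untreated. All were male C57BL mice, an inbred strain, aged 4 weeks per the labels, housed individually and acclimatised for 2 weeks; water bottles then held the drug during 4 weeks, and 10 of 30 animals entered each treatment. RNA of 9 animals was hybridised without pooling, so each array, 3 per group, is a separate animal. The drug doses differ, each set by the submitters at the top of human dosing, and the descriptions name the right forebrain whereas the tissue entry names the left hemisphere. The series text states that the chronic effects of both drugs on expression were to be compared.

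Cadherins are transmembrane proteins that join cells through calcium-dependent binding of like to like, and their tails reach the actin skeleton through catenins. Immunoglobulin-type molecules such as Ncam1 and L1cam, and the contactins, guide and bundle axons and shape synapses and the nodes along myelinated fibres. Eph receptors are tyrosine kinases that read membrane-bound ephrins on neighbouring cells, and signals run both ways; they steer axons during development and act on dendritic spines later.

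Values below are the deposited log2 values, made with the GCRMA method, so a difference of 1 is a doubling. Of the 44 members, 29 had a 9-array mean above the filter of 3.45, the 40th percentile of all probe sets that are not controls, and were tested among 7453 probe sets. The tested members had means between 3.66 (Pcdh7) and 11.2 (Cntn1), but levels of different probe sets cannot be ranked, since each binds with its own efficiency. The cut passed between Epha3, with a mean of 3.25, and Cdh6, at 3.27, on the outside and Pcdh7, at 3.66, and Cntn3, at 3.71, on the inside.

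The arrays themselves differed. For Actb and Gapdh the array reads the 3' and the 5' end of the transcript apart, and a wide gap between the ends means that labelled RNA leans to the 3' end. This gap was 1.73 log2 units in control 3 and 0.81 to 1.46 in the other arrays. Haloperidol 3 alone carried pituitary transcripts, with the growth hormone gene Gh at 12.6, against 1.07 to 1.28 in the other arrays, so results are also given without these animals. Of the forebrain markers, Tbr1 lay at 9.97 to 11.2 and Neurod6 at 5.61 to 6.41. The cerebellar markers Gabra6, Cbln1 and En2 lay below the filter, whereas Pcp2 had 7.07 to 7.46. In such bulk tissue, fewer cells of a type and less RNA per cell cannot be told apart.

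Promoters are shown for 5 members around which the results below turn. Cntn1 was the member whose drug arrays of both kinds all lay above the controls, Epha7 and Efnb2 were highest on the same 4 arrays, and Epha4 and Ephb6 were lowest in the same control animal. Each window runs from 250 bases before to 50 bases after the gene's start, 5' to 3' on the gene's strand, from the RefSeq table of GRCm38.p6. Cntn1 has 3 entries there and Epha7 has 2, of which the entry listed first is printed. Capitals mark GC boxes (GGGCGG) and TATA boxes (TATAAA), searched on both strands together with the E-box CACGTG.
Cntn1, chr15:92050915-92051214 (plus strand): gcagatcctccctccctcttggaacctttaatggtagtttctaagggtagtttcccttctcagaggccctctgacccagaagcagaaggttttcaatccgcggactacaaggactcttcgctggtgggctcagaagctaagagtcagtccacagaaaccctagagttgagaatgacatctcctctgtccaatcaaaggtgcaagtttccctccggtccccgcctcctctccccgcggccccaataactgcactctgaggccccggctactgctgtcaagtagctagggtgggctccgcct
Epha7, chr4:28812881-28813180 (plus strand): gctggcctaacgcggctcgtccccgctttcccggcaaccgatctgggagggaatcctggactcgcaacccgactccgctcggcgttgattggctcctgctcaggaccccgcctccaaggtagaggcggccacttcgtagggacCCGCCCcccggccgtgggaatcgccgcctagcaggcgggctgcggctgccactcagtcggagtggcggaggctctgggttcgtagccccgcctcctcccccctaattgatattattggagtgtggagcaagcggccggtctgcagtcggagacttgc
Efnb2, chr8:8661193-8661492 (minus strand): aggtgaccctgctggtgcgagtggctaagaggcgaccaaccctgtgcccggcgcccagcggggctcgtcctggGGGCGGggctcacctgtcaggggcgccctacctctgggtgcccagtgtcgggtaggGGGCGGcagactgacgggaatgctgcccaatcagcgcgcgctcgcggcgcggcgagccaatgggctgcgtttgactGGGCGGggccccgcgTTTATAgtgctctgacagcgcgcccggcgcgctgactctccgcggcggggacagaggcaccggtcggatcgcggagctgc
Epha4, chr1:77515039-77515338 (minus strand): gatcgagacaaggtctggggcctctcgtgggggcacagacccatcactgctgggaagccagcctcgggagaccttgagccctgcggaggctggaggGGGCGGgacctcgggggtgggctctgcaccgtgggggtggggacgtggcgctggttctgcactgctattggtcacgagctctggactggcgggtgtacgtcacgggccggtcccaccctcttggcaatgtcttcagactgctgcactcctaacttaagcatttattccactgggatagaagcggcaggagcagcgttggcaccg
Ephb6, chr6:41605261-41605560 (plus strand): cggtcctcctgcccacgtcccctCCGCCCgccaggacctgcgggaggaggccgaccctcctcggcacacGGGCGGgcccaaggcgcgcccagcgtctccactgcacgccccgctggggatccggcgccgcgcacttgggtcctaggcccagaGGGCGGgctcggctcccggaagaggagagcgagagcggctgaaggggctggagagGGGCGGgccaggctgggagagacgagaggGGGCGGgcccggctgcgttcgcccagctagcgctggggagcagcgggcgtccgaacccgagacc

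Efnb2 held 3 GC boxes and a TATA box, Ephb6 held 5 GC boxes, Epha7 and Epha4 each held 1, and the Cntn1 window held none of the 3 motifs. No 2 of these motifs overlapped in the windows. Among the 30 of 44 members matched in the table, 66.7% had a GC box, against 35.9% of all 27025 genes in it. A TATA box occurred in 3.33%, against 14.2%, and an E-box in 6.67%, against 7.24%. The 27025 genes are not limited to those on the array, and shares among array genes were not counted. The median number of CG dinucleotides was 19 in the members' windows and 7 in those of all genes. These matches describe letters only.

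No member passed the test in any comparison. Limma's moderated test with Benjamini-Hochberg adjustment over all 7453 probe sets called 0 of 29 members at an adjusted p of 0.05 for clozapine against control, for haloperidol against control and for clozapine against haloperidol, and 0% of all probe sets. Before adjustment, 0 members had a p under 0.05 with clozapine, where 0.939% of all probe sets did, and 2 members, or 6.90%, with haloperidol, where 9.12% did. Between the drugs 0 members did, where 3.64% of all probe sets did. The unadjusted shares of the members were thus at or below those of the whole array. The typical 95% interval of a member, which is not adjusted, reached 0.41 log2 units to either side, against 0.35 over all probe sets. A smaller change in a typical member could thus not be told from 0 with 3 animals a group, even before adjustment. A call after adjustment over all probe sets needed a larger change still.

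**Figure D1:**
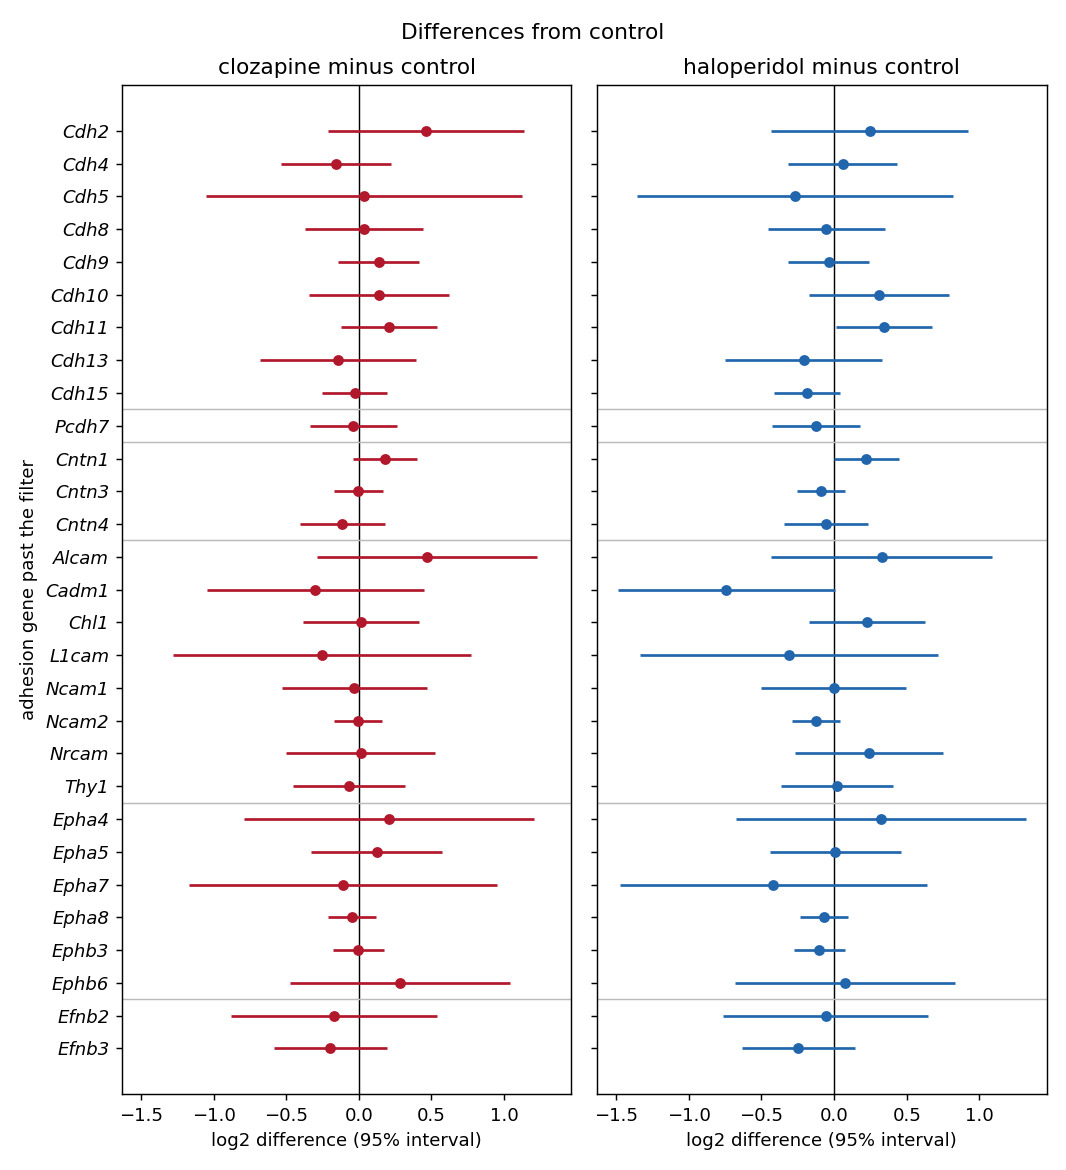
Log2 differences of the 29 tested adhesion genes, clozapine minus control on the left and haloperidol minus control on the right, with 95% intervals from limma; grey lines part the families. Apart from Cdh11 and Cntn1 with haloperidol, every interval spans 0, and the Cadm1 interval with haloperidol reaches just past it, to 0.0046.

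Among the contactins, Cntn1, a lipid-anchored molecule of axons that forms the junctions beside the nodes of Ranvier, was read by probe set 92936_at. It had 11.16, 11.29 and 11.34 in clozapine mice, 11.23, 11.47 and 11.21 in haloperidol mice, and 11.05, 11.14 and 11.05 in control mice. All 6 drug arrays lay above all 3 controls, although the lowest clozapine array stood close to the highest control. The difference was 0.18 ± 0.10 (SE, n = 3 per group) with clozapine, with a 95% interval of -0.039 to 0.40 and an unadjusted p of 0.0940 by limma. With haloperidol it was 0.22 ± 0.10, a fold of 1.17, with an interval of 0.0017 to 0.44, an unadjusted p of 0.0486 and an adjusted p of 0.530 by limma. Both comparisons use the same 3 control mice. Cntn1 was the only member whose clozapine arrays all lay above the controls, or 3.45% of the 29, against 1.27% of all probe sets, and the only one whose haloperidol arrays did, against 2.29%. Among tested probe sets above their median level of 6.23, as Cntn1 was, 1.72% lay so with clozapine and 3.84% with haloperidol. Leaving out any animal kept its differences between 0.14 and 0.27.

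Cntn3 and Cntn4, which act in axon outgrowth, were read near the filter. Cntn3 averaged 3.73 ± 0.059 in clozapine mice, 3.65 ± 0.051 in haloperidol mice and 3.74 ± 0.024 in control mice (SD, n = 3 each). Cntn4 averaged 3.71 ± 0.13 in clozapine mice, 3.76 ± 0.16 in haloperidol mice and 3.82 ± 0.17 in control mice. The Cntn4 groups overlapped, whereas all haloperidol values of Cntn3 lay below the controls, a pattern that low probe sets shared on these arrays, as described further on. Of the contactins past the filter, 1 lay above and 2 below the controls with either drug, but once arrays were centred on their medians 2 were higher with clozapine and 3 with haloperidol, and after quantile normalization 1 was with clozapine and 3 with haloperidol. Their medians as deposited were -0.0038 with clozapine and -0.056 with haloperidol. The partner of Cntn1 at the junction, Cntnap1, had a mean of 1.66, below the filter.

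Among the cadherins, Cdh11, a type II cadherin of mesenchymal cells and neurons, had the lowest p of any member with haloperidol, 0.0443 before and 0.530 after adjustment by limma. Its probe set (100006_at) had 6.20, 6.22 and 6.22 in clozapine mice, 6.48, 6.06 and 6.51 in haloperidol mice, and 6.21, 5.84 and 5.97 in control mice. Haloperidol 1 and 3 were the highest arrays, haloperidol 2 lay among the controls, and the clozapine values nearly coincided just beside control 1. The haloperidol difference was 0.34 ± 0.14 (SE, n = 3 per group), a fold of 1.27, with a 95% interval of 0.011 to 0.68. It was 0.26 without haloperidol 3, the animal with pituitary transcripts, 0.33 without control 3 and 0.49 without haloperidol 2. With clozapine, the Cdh11 difference was 0.21 ± 0.14, with an unadjusted p of 0.190.

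Cdh2, or N-cadherin, the classical cadherin of neural tissue and of synapses, shows how much 1 animal could weigh. Its probe set (102852_at) had 10.77, 10.62 and 11.86 in clozapine mice, 10.78, 10.94 and 10.88 in haloperidol mice, and 10.45, 10.80 and 10.61 in control mice. Clozapine 3 lay far above every other array, and the other clozapine arrays lay within the range of the controls. The clozapine difference was 0.46 ± 0.29, with an unadjusted p of 0.153 by limma, and came to 0.075 without clozapine 3 and 0.69 without clozapine 2. With haloperidol it was 0.24 ± 0.29, and the groups overlapped.

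The other type II cadherins Cdh8, Cdh9 and Cdh10, which mark particular circuits in the forebrain, did not pass the test either. Cdh8 averaged 6.35 ± 0.23 in clozapine mice, 6.27 ± 0.31 in haloperidol mice and 6.32 ± 0.10 in control mice (SD, n = 3 each). Cdh9, known from hippocampal mossy fibre synapses, had 4.18, 4.42 and 4.19 in clozapine mice, 4.08, 4.12 and 4.07 in haloperidol mice, and 4.29, 3.89 and 4.20 in control mice. Its clozapine arrays all lay above the haloperidol arrays, while the controls overlapped both groups. Cdh10 had 5.13, 5.15 and 5.07 in clozapine mice, 5.03, 5.35 and 5.49 in haloperidol mice, and 5.21, 5.24 and 4.49 in control mice. Control 3 was the lowest of these, and the haloperidol difference of 0.31 ± 0.21 became 0.065 without it and 0.44 without haloperidol 1. With control 3 and haloperidol 3 both left out, the Cdh10 haloperidol difference turned to -0.036.

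Cdh4 (R-cadherin), Cdh13 (T-cadherin, which is lipid-anchored and binds adiponectin) and Cdh15 (M-cadherin, best known from muscle) gave differences between -0.21 and 0.06 against control. Cdh4 averaged 4.99 ± 0.22 in clozapine mice, 5.20 ± 0.083 in haloperidol mice and 5.14 ± 0.28 in control mice. Cdh13 averaged 5.75 ± 0.15 in clozapine mice, 5.68 ± 0.31 in haloperidol mice and 5.89 ± 0.43 in control mice. The high Cdh13 control mean rested on control 3, at 6.39, next to 5.66 and 5.63 in the other controls, and without it the differences were 0.10 with clozapine and 0.038 with haloperidol. Cdh15 had 4.64, 4.92 and 4.77 in clozapine mice, 4.69, 4.68 and 4.49 in haloperidol mice, and 4.81, 4.80 and 4.81 in control mice. Its haloperidol arrays lay below all controls, with a difference of -0.19 ± 0.10 and an unadjusted p of 0.0917 by limma, and it was -0.12 without haloperidol 3 and -0.22 without haloperidol 1.

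Cdh5, or VE-cadherin, which holds blood vessel endothelium together, had the widest spread within groups of all tested members, with a residual SD of 0.66. It had 5.85, 5.71 and 6.75 in clozapine mice, 6.44, 5.27 and 5.69 in haloperidol mice, and 5.16, 6.36 and 6.68 in control mice. High and low arrays occurred in every group, and the differences were 0.036 ± 0.47 with clozapine and -0.27 ± 0.47 with haloperidol. With single arrays left out they ran from -0.42 to 0.34 with clozapine and from -0.72 to 0.037 with haloperidol. Of the 9 cadherins past the filter, 6 lay above the controls and 3 below under clozapine, and these counts also held after centring or quantile normalization; the median as deposited was 0.036. With haloperidol 4 lay above and 5 below, with a median of -0.036, but 6 lay above after centring and 5 after quantile normalization. The protocadherin Pcdh7 averaged 3.67 ± 0.047 in clozapine mice, 3.59 ± 0.24 in haloperidol mice and 3.71 ± 0.13 in control mice (SD, n = 3 each).

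**Figure D2:**
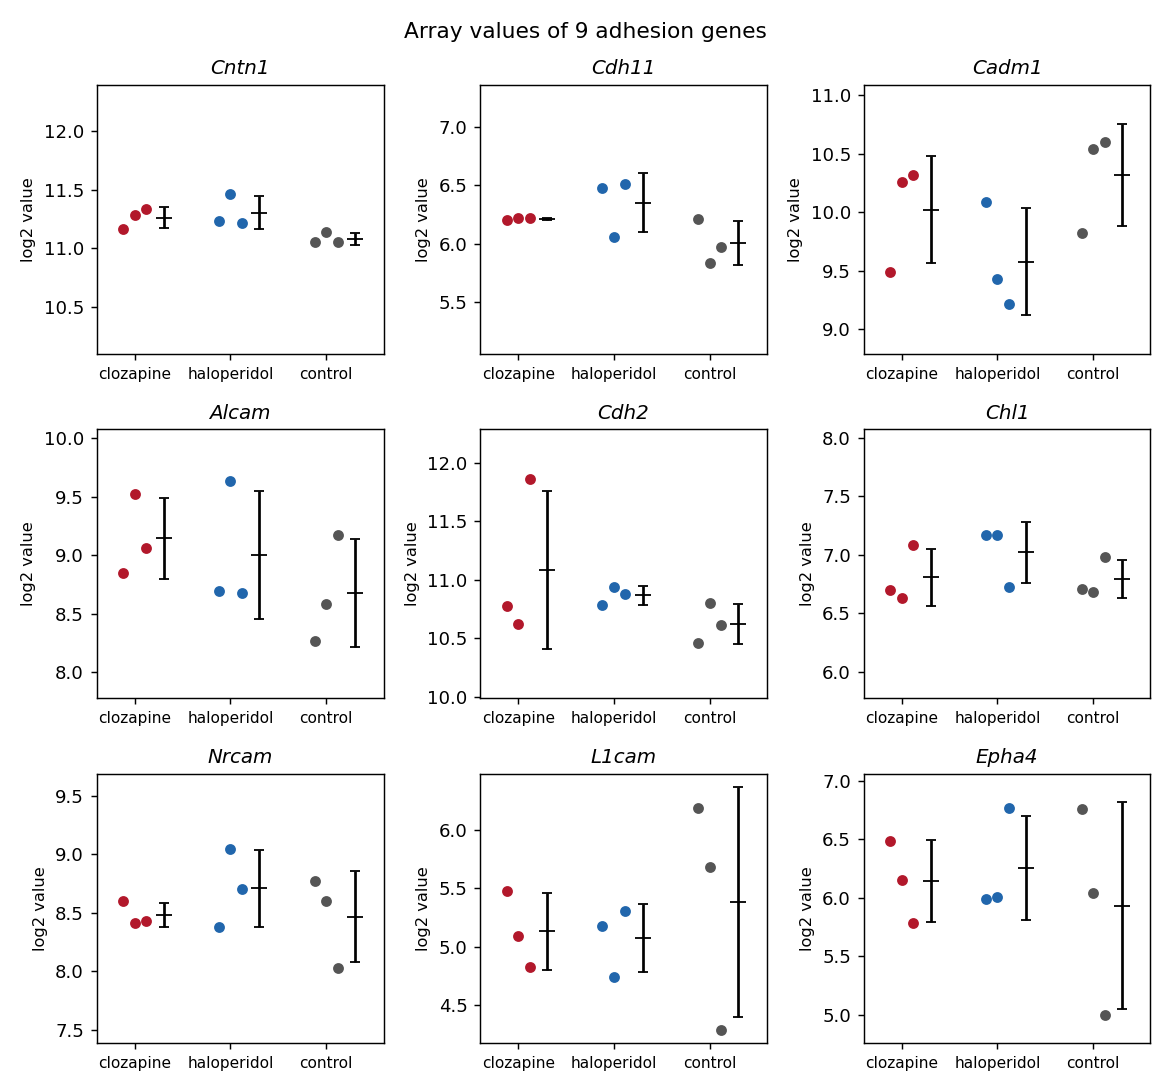
Log2 values of 9 adhesion genes on every array, by group, with the group mean and SD (black) beside the 3 animals; every panel spans the same height in log2 units. In Cntn1 the 6 drug arrays lie above the 3 controls, in Cdh2 clozapine 3 stands alone at 11.86, and in L1cam and Epha4 the controls spread over the whole panel.

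Among the immunoglobulin-type molecules, Cadm1 (SynCAM1), which bridges the synaptic cleft, gave the largest haloperidol difference of any tested member in absolute size. Its probe set (93604_f_at) had 9.49, 10.26 and 10.32 in clozapine mice, 10.09, 9.43 and 9.22 in haloperidol mice, and 9.82, 10.54 and 10.60 in control mice. Haloperidol 2 and 3 were the lowest arrays and control 2 and 3 the highest, but haloperidol 1 lay above control 1, so the groups overlapped. The haloperidol difference was -0.74 ± 0.32 (SE, n = 3 per group), a fold of 0.598, with a 95% interval of -1.49 to 0.0046, an unadjusted p of 0.0511 and an adjusted p of 0.530 by limma. It was -0.56 without haloperidol 3, -0.60 without control 3 and -0.999 without haloperidol 1, and -0.26 when the array's 3' to 5' gap entered the model. The clozapine difference was -0.30 ± 0.32 and came to -0.033 without clozapine 1 and -0.55 without control 1.

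Cadm1 had 2 further probe sets past the filter, and neither gave so large a difference with haloperidol. They had -0.087 ± 0.13 and -0.058 ± 0.41 with haloperidol, and 0.22 ± 0.13 and -0.050 ± 0.41 with clozapine. All 3 carry suffixes that Affymetrix gives to probe sets with probes shared among transcripts or chosen under relaxed rules. Across the members, 7 further probe sets of 5 genes passed the filter, and 2 of the 7 had the opposite sign to the member's own probe set in each comparison with control. The further probe sets of Ncam1 gave -0.20 ± 0.094 and 0.33 ± 0.35 with haloperidol, where the member's own gave -0.0011 ± 0.22.

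**Figure D3:**
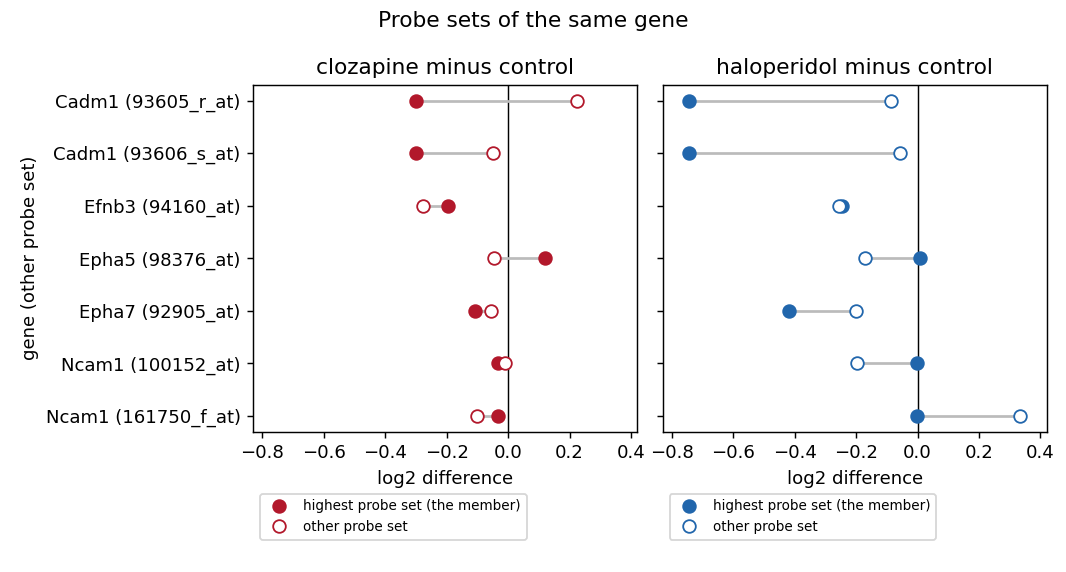
Log2 difference from control of the member's probe set (filled) and of each further probe set of the same gene past the filter (open), clozapine minus control on the left and haloperidol minus control on the right. For Cadm1 the filled point lies at -0.74 with haloperidol and the open points lie at -0.087 and -0.058.

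Alcam, which binds itself and CD6 and bundles axons, had 8.85, 9.52 and 9.06 in clozapine mice, 8.69, 9.63 and 8.68 in haloperidol mice, and 8.27, 8.58 and 9.17 in control mice. Clozapine 2 and haloperidol 2 were the highest arrays and control 1 the lowest, and the groups overlapped. The differences were 0.47 ± 0.33 with clozapine (unadjusted p of 0.193 by limma) and 0.33 ± 0.33 with haloperidol. With single arrays left out, the clozapine value ran from 0.27 (without control 1) to 0.72 (without control 3), and the haloperidol value from 0.011 (without haloperidol 2) to 0.58 (without control 3).

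Chl1 and Nrcam, relatives of L1 that act in axon guidance and, for Nrcam, at the nodes of Ranvier, lay higher on average with haloperidol than in the other groups. Chl1 had 6.70, 6.63 and 7.08 in clozapine mice, 7.17, 7.17 and 6.72 in haloperidol mice, and 6.71, 6.68 and 6.98 in control mice. Nrcam had 8.60, 8.41 and 8.43 in clozapine mice, 8.38, 9.04 and 8.70 in haloperidol mice, and 8.77, 8.60 and 8.03 in control mice. In both genes the groups overlapped, with 2 high haloperidol arrays for Chl1 and a low control 3 for Nrcam. The haloperidol differences were 0.23 ± 0.17 for Chl1 and 0.24 ± 0.22 for Nrcam, with unadjusted p of 0.223 and 0.310 by limma. With single arrays left out, they ran from 0.15 to 0.38 for Chl1 and from 0.022 (without control 3) to 0.41 (without haloperidol 1) for Nrcam. With the array's 3' to 5' gap in the model, the haloperidol difference was 0.36 for Chl1 but turned to -0.064 for Nrcam.

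L1cam, which promotes neurite growth and is anchored by ankyrins, had 5.48, 5.09 and 4.83 in clozapine mice, 5.17, 4.74 and 5.30 in haloperidol mice, and 6.18, 5.69 and 4.29 in control mice. The controls held the highest arrays and also the lowest, control 3, and so enclosed all drug values. The differences were -0.25 ± 0.44 with clozapine and -0.31 ± 0.44 with haloperidol, and without control 3 they came to -0.80 with clozapine and -0.86 with haloperidol. Without control 1 both signs turned, to 0.15 with clozapine and 0.090 with haloperidol. With control 3 and haloperidol 3 both left out, the haloperidol difference was -0.97.

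Ncam1, the carrier of polysialic acid, averaged 9.21 ± 0.19 in clozapine mice, 9.25 ± 0.43 in haloperidol mice and 9.25 ± 0.18 in control mice. Thy1, a small lipid-anchored protein of mature neurons, averaged 10.86 ± 0.11 in clozapine mice, 10.95 ± 0.34 in haloperidol mice and 10.93 ± 0.13 in control mice (SD, n = 3 each). These groups overlapped, and the intervals of the Thy1 difference reached from -0.46 to 0.32 with clozapine and from -0.37 to 0.41 with haloperidol. Ncam2, which acts in the sorting of olfactory axons, had 4.56, 4.70 and 4.62 in clozapine mice, 4.54, 4.49 and 4.49 in haloperidol mice, and 4.64, 4.63 and 4.63 in control mice. Its haloperidol arrays were the 3 lowest, at -0.12 ± 0.072 from control, while the clozapine difference was -0.0031 ± 0.072. Of the 8 immunoglobulin-type members, 3 lay above and 5 below the controls with clozapine and 4 above and 4 below with haloperidol. After quantile normalization 2 lay above with clozapine and 3 with haloperidol, and after centring 4 did with clozapine and 5 with haloperidol.

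Of the Eph receptors, Epha4, which answers to ephrins of both classes, had 6.48, 6.15 and 5.79 in clozapine mice, 5.99, 6.004 and 6.77 in haloperidol mice, and 6.76, 6.04 and 4.998 in control mice. Ephb6, whose kinase domain is inactive, had 7.40, 7.19 and 7.13 in clozapine mice, 6.70, 6.93 and 7.46 in haloperidol mice, and 7.51, 7.14 and 6.21 in control mice. In both receptors control 1 and haloperidol 3 were the highest arrays, and control 3 was the lowest by a wide margin. The differences of Epha4 were 0.21 ± 0.43 with clozapine and 0.32 ± 0.43 with haloperidol, and without control 3 they came to -0.26 with clozapine and -0.14 with haloperidol. For Ephb6 they were 0.28 ± 0.33 with clozapine and 0.075 ± 0.33 with haloperidol, and without control 3 they were -0.089 with clozapine and -0.30 with haloperidol. The Ephb6 haloperidol difference also turned without haloperidol 3, to -0.14, and that of Epha4 came to 0.066. With control 3 and haloperidol 3 both left out, the haloperidol differences were -0.40 for Epha4 and -0.51 for Ephb6. Without control 1 the Epha4 differences were 0.62 with clozapine and 0.74 with haloperidol. With the array's 3' to 5' gap in the model all 4 differences lay below 0, between -0.11 and -0.40.

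Epha7, a receptor for ephrin-A ligands that acts in the mapping of cortical connections, had 7.78, 7.93 and 9.11 in clozapine mice, 8.85, 7.34 and 7.71 in haloperidol mice, and 8.03, 8.60 and 8.51 in control mice. Clozapine 3 and haloperidol 1 were the highest and the other haloperidol arrays the lowest, so the groups overlapped. Its differences were -0.11 ± 0.46 with clozapine and -0.42 ± 0.46 with haloperidol, and the clozapine value ran from -0.53 without clozapine 3 to 0.14 without clozapine 1. The haloperidol value moved between -0.86 without haloperidol 1 and -0.10 without haloperidol 2. Epha5, another such receptor, averaged 8.19 ± 0.42 in clozapine mice, 8.08 ± 0.11 in haloperidol mice and 8.07 ± 0.12 in control mice. Epha8 averaged 3.76 ± 0.050 in clozapine mice, 3.74 ± 0.0062 in haloperidol mice and 3.81 ± 0.061 in control mice. Ephb3, a receptor for ephrin-B ligands, averaged 4.06 ± 0.096 in clozapine mice, 3.96 ± 0.016 in haloperidol mice and 4.06 ± 0.022 in control mice (SD, n = 3 each), and its haloperidol arrays lay below those of both other groups. Of the 6 Eph receptors past the filter, 3 lay above and 3 below the controls with either drug, but 5 lay above with haloperidol after centring and 4 above with either drug after quantile normalization.

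Of the ephrins, only the transmembrane ligands Efnb2 and Efnb3 were past the filter. Efnb3, a midline repellent of corticospinal axons, had 6.26, 6.39 and 6.56 in clozapine mice, 6.19, 6.37 and 6.50 in haloperidol mice, and 6.41, 6.43 and 6.96 in control mice. Control 3 stood above the other arrays, and the remaining values overlapped. The differences were -0.20 ± 0.17 with clozapine and -0.25 ± 0.17 with haloperidol. Without control 3 they came to -0.016 with clozapine and -0.066 with haloperidol, and without control 1 to -0.29 with clozapine and -0.34 with haloperidol. The further probe set of Efnb3 past the filter, at a mean of 5.01, gave -0.28 ± 0.22 with clozapine and -0.26 ± 0.22 with haloperidol. There control 1, at 5.68, was the highest array, and control 3 had 4.91. Efnb2, which also marks arteries, had 7.93, 8.31 and 8.85 in clozapine mice, 8.93, 8.15 and 8.36 in haloperidol mice, and 8.16, 8.48 and 8.98 in control mice. Its highest arrays came from all 3 groups, and its differences were -0.17 ± 0.31 with clozapine and -0.058 ± 0.31 with haloperidol. With single arrays left out, the Efnb2 values ran from -0.41 to 0.047 with clozapine and from -0.28 to 0.16 with haloperidol, so its sign was not settled; after centring the haloperidol value was 0.046.

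**Figure D4:**
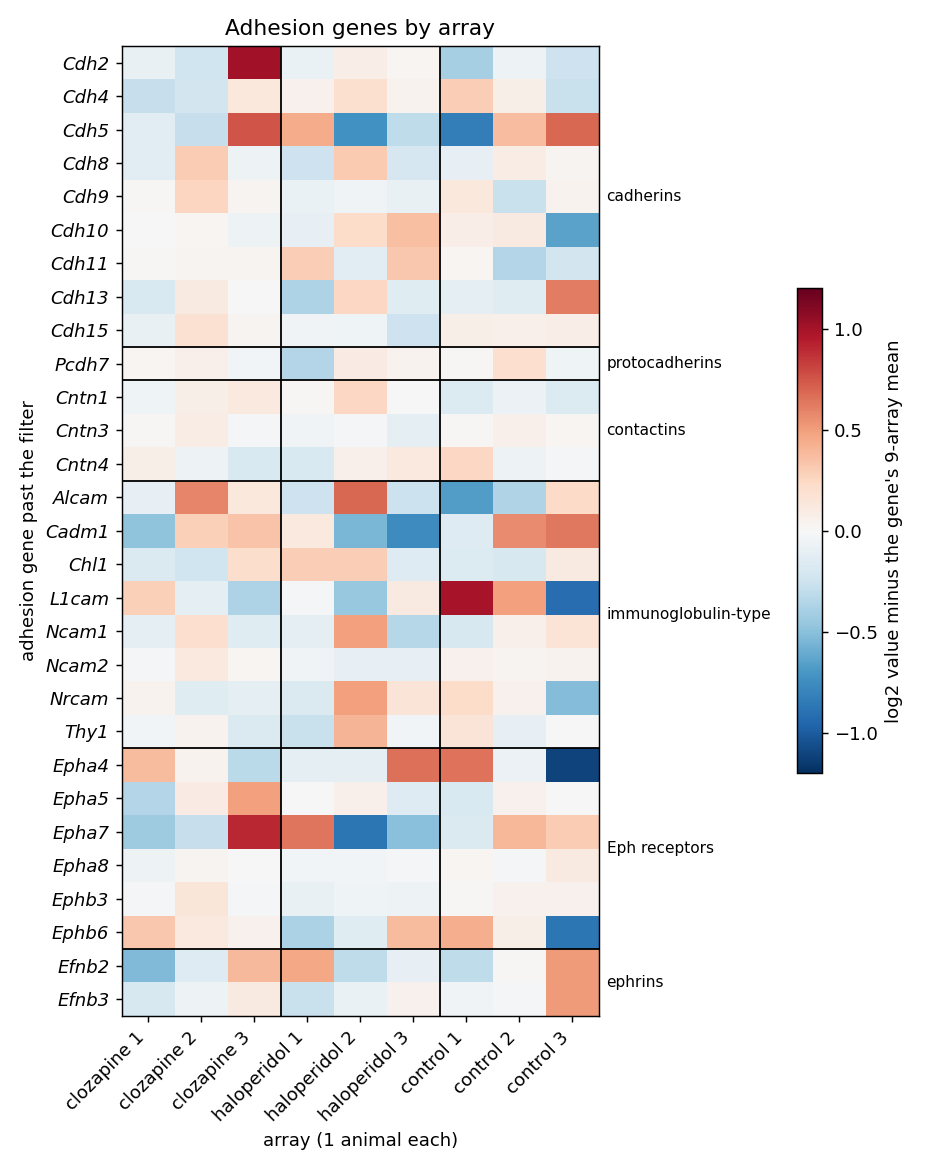
Log2 value of each tested adhesion gene on each array minus that gene's mean over the 9 arrays, red for higher and blue for lower; columns run from clozapine over haloperidol to control, rows are grouped by family. The strong colours sit in single arrays, such as clozapine 3 for Cdh2 and control 3 for Epha4, Ephb6 and L1cam, rather than in whole groups.

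Across animals, haloperidol 2 held the highest value of 7 members, Alcam, Cdh8, Chl1, Cntn1, Ncam1, Nrcam and Thy1, or more than any other array, and it was highest in 7.78% of all probe sets. Without haloperidol 2, the haloperidol difference came to -0.24 for Ncam1, -0.16 for Thy1, 0.073 for Nrcam and 0.14 for Cntn1. Haloperidol 1 held the lowest value of 7 members, among them Cdh13, Efnb3, Pcdh7 and Thy1, and of 8.04% of all probe sets. Control 3 was highest in 5 members and lowest in 5, where it was highest in 13.4% and lowest in 22.4% of all probe sets. A member's median distance from its own mean was 0.22 log2 units in control 3 and 0.19 in haloperidol 2, against 0.15 and 0.11 over all probe sets. This distance was also larger than over all probe sets in control 1, clozapine 1, clozapine 3 and haloperidol 1. It was smaller in haloperidol 3, control 2 and clozapine 2. The median residual SD was 0.23 in the members and 0.20 over all probe sets.

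Cdh5, Efnb2 and Epha7 shared their highest arrays. In each of them control 3, control 2, haloperidol 1 and clozapine 3 held the 4 highest values, and these were also the 4 arrays with the largest 3' to 5' gaps, of 1.73, 1.46, 1.30 and 1.14. This held for 3 of 29 members, or 10.3%, and for 4.76% of all probe sets, and no member had its lowest values on those arrays, where 5.33% of all probe sets did. The fourth gap was close to the fifth, 1.13 in clozapine 2, which did not share the high values. The further probe set of Epha7 past the filter, at a mean of 3.95, did not share this order. There clozapine 2, at 4.06, and control 1, at 3.97, lay above haloperidol 1, at 3.87, and the haloperidol difference was -0.20 ± 0.080. With the gap in the model, the clozapine differences became 0.60 for Cdh5, 0.18 for Efnb2 and 0.30 for Epha7. The haloperidol differences, all below 0 without it, became 0.41 for Cdh5, 0.36 for Efnb2 and 0.075 for Epha7. Of the other endothelial markers, Flt1 had the same 4 arrays highest within a range of 6.28 to 6.48, whereas Cldn5, Pecam1 and Tek did not. In Flt1, however, clozapine 3 was level with control 1, at 6.42 in both. Of all 30 markers past the filter, 3 had these arrays highest (Tbr1, Flt1 and Cdh5) and 2 had them lowest (the neuronal Syt1 and Nefl). The forebrain marker Neurod6 had its lowest value, 5.61, in control 2. Cldn5 had 6.81, 5.67 and 5.997 in clozapine mice, 6.35, 6.27 and 6.68 in haloperidol mice, and 7.24, 7.29 and 6.32 in control mice. The summed log2 level of the 5 endothelial markers, Cdh5 included, ran from 27.5 to 29.1 with clozapine, 27.6 to 29.2 with haloperidol and 28.8 to 30.5 in controls. The part of vessel content in these values was not tested.

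**Figure D5:**
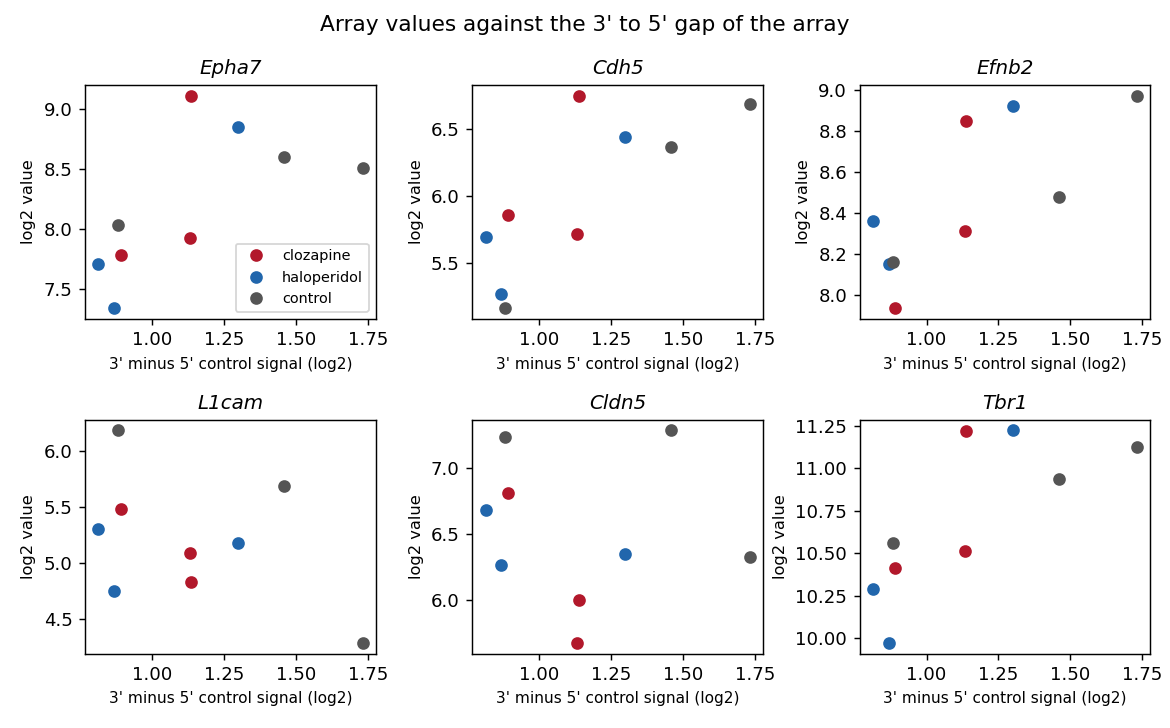
Log2 value of 4 adhesion genes (Epha7, Cdh5, Efnb2 and L1cam), of the endothelial marker Cldn5 and of the forebrain marker Tbr1 on each array, against the array's gap between 3' and 5' control probe sets in log2 units; colours give the group. Epha7, Cdh5, Efnb2 and Tbr1 are highest on the 4 arrays with the largest gaps, while Cldn5 is not. The neuronal markers Syt1 and Nefl, not shown, are lowest on these 4 arrays.

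With haloperidol, low probe sets lay below the controls throughout the array, and this touched the low members. All 3 haloperidol arrays lay below all controls in 5 members, Cdh15, Cntn3, Epha8, Ephb3 and Ncam2, or 17.2%, against 19.4% of all probe sets. Each of the 5 was among the 15 tested members at or below the median level of 6.23, where 35.4% of all probe sets lay so, and 0 of the 14 members above it did, where 3.38% did. Differences were -0.069 for Epha8, -0.090 for Cntn3 and -0.10 for Ephb3, and these came, after centring, to 0.035, 0.014 and 0.0010, whereas Cdh15 and Ncam2 remained below at -0.083 and -0.020. Centring moved the median haloperidol difference of all probe sets by 0.10, to 0.085. With clozapine, 0 members had all arrays below the controls, where 2.16% of all probe sets did.

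Between the drugs, whose doses differ, 18 members lay higher with clozapine and 11 lower, with a median of 0.066, against 0.026 over all probe sets. Clozapine arrays all lay above haloperidol arrays in Cdh9, Ephb3 and Ncam2, 3 members or 10.3%, against 15.2% of all probe sets, and all below in 0 members, against 1.96%. The lowest unadjusted p, 0.131 by limma, belonged to Ncam2, at 0.12 ± 0.072 with an adjusted p of 0.925. Above haloperidol lay also Cdh15 at 0.16 ± 0.10, Cdh9 at 0.17 ± 0.12, Cadm1 at 0.44 ± 0.32 and Ephb3 at 0.098 ± 0.076, none past the test. On the other side lay Cdh4 at -0.22 ± 0.16, Chl1 at -0.21 ± 0.17, Nrcam at -0.23 ± 0.22, Cdh11 at -0.14 ± 0.14 and Cdh10 at -0.17 ± 0.21. The interval of Cntn1 between the drugs ran from -0.26 to 0.18 and that of Ncam1 from -0.53 to 0.47. After centring, 10 members lay higher with clozapine and 19 lower, with a median of -0.034, against -0.073 over all probe sets. Of all 7453 probe sets, 2281 then lay higher with clozapine and 5172 lower.

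Of all 29 tested members, 13 lay above the controls and 16 below under clozapine, at a median of -0.0038, against -0.0013 over all probe sets. With haloperidol 12 lay above and 17 below, with a median of -0.052, against -0.018 over all probe sets, but 20 lay above after centring, with a median of 0.051, against 0.085 over all probe sets.

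The 15 members below the filter were Cdh1 at a mean of 1.80, Cdh3 at 2.71, Cdh6 at 3.27, Cdh16 at 3.17, Cntnap1 at 1.66, Efna1 at 3.09, Efna2 at 2.23, Efna3 at 2.44, Efna4 at 3.16, Efna5 at 2.61, Efnb1 at 2.93, Epha2 at 2.15, Epha3 at 3.25, Epha6 at 3.04 and Pcdh12 at 2.02. They include all 5 ephrin-A ligands on the array, the lipid-anchored partners of the EphA receptors, and the epithelial cadherin Cdh1. They were tested only when the filter was dropped, where limma called 0 of 44 members, and their ranges over the 9 arrays were 0.11 to 0.43 log2 units. With haloperidol 14 of the 15 lay below the controls, as did 95.3% of the 4969 probe sets below the filter, and with clozapine 6 did, where 20.4% of those probe sets did.

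Genes that act with the members were read from 4 lists. In the cadherin and catenin complex, 11 of 13 genes were tested, in the neurexin and neuroligin scaffolds 7 of 17, among the partners of L1, contactins and Ncam 11 of 16, and in Eph and ephrin signalling 13 of 20. Limma called 0 genes of any list in any comparison. At an unadjusted p under 0.05 there were 0 genes with clozapine. There were 2 of the 13 genes of Eph and ephrin signalling with haloperidol, where 9.12% of all probe sets had such a p, and 2 between the drugs, where 3.64% did; the other lists had 0. With haloperidol they were Nck1, an adaptor that links activated receptors to actin, and Tiam1, an activator of Rac. Nck1 had 4.41, 4.68 and 4.59 in clozapine mice, 4.47, 4.32 and 4.18 in haloperidol mice, and 4.54, 4.76 and 4.66 in control mice, with every haloperidol array below the controls, as in 35.4% of all probe sets at or below the median level. Tiam1 had 7.71, 7.64 and 7.57 in clozapine mice, 7.88, 7.73 and 7.98 in haloperidol mice, and 7.60, 7.61 and 7.70 in control mice. Every haloperidol array of Tiam1 lay above the controls, as in 3.84% of all probe sets above the median level. The haloperidol differences were -0.33 ± 0.11 for Nck1 and 0.23 ± 0.091 for Tiam1, with unadjusted p of 0.0197 and 0.0368 and an adjusted p of 0.530 for both by limma.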

How the data were processed

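RNA of 9 mouse forebrains was read on 9 Affymetrix U74Av2 arrays. The authors deposited log2 values from GCRMA (per the submitters' processing notes), a method that corrects background by probe sequence and summarises each probe set. The sources used here give neither its version nor the probe set definition. Precision is limited by the 3 arrays per group.

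Groups and replicate numbers come from the titles. Of 12488 probe sets, 66 controls were left out; 10833 of the others had 1 gene symbol in the platform annotation, 396 several and 1193 none. RefSeq's table of GRCm38.p6, matched by Entrez identifier, gave current symbols for 44 of 44 members. Probe sets with a 9-array mean above the 40th percentile (3.45) were tested.

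Limma 3.58.1 in R 4.3.3 fitted 1 mean per group to all 9 arrays (6 residual degrees of freedom), with two-sided tests and Benjamini-Hochberg adjustment over 7453 probe sets at 0.05. The fit was tested on simulated data. An exact permutation test of 3 against 3 arrays cannot go below 0.1 and was not used. A gene's position among arrays ("all above") was counted for every probe set as background.

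The members and gene lists were chosen with earlier results of these data known. Named in each comparison were the members of lowest unadjusted p, 5 on either side of 0, those with the widest spread and a set list of well-known members; partner genes were named as examples after their values were seen. Alternatives covered the filter, a floor, centring, quantile normalization, limma's prior, array weights, the arrays fitted, a replicate block, the probe set of a gene and each array left out. Leaving out control 3 with haloperidol 3, and entering the 3' to 5' gap, were added after seeing the data.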

Additional observations from a re-analysis of the deposited data

How the results depend on the processing

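Under 22 alternatives, limma called 0 members in each comparison, and 0 probe sets under all of these but the 2 on the choice of a gene's probe set, which give no count over the whole table. Of 1878 alternative values of the 87 member differences, 1849 lay within 1 residual SD of the main value and 29 lay further off. Many of the 1849 could not move. Group means stay the same under another filter or prior, the balanced block or a fit of only the compared arrays. They also stay when the array left out belongs to the group not compared. These counts therefore do not measure stability. Of the values, 0 passed the threshold and 177 changed sign, over 59 differences. The lowest adjusted p by limma was 0.0645, for Cdh11 with haloperidol under array weights, whose estimation did not fully converge. The count of members at an unadjusted p under 0.05 ran from 0 to 3 with clozapine, 0 to 5 with haloperidol and 0 to 2 between the drugs. The members' median with haloperidol, -0.052, was 0.0091 with a filter at the 60th percentile (fewer probe sets), 0.051 after centring and 0.0058 after quantile normalization. The median between the drugs, 0.066, was -0.034 after centring and -0.0046 after quantile normalization; the cause was not tested. Leaving out each array in turn, the medians ran from -0.041 (without clozapine 2) to 0.037 (without clozapine 1) with clozapine, from -0.067 (without haloperidol 2) to 0.014 (without haloperidol 1) with haloperidol, and from -0.012 (without haloperidol 1) to 0.10 (without clozapine 1) between the drugs.

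With the replicate number as a block 0 members were called. Every group holds each replicate number, so the medians, -0.0038, -0.052 and 0.066, were bound to stay the same. Deviations of same-numbered arrays correlated between -0.597 and 0.697 over 9 pairs, and those of other arrays between -0.660 and 0.661 over 18. The values of whole arrays correlated up to 0.994 between groups and up to 0.987 within them. These ranges give only the extremes and so cannot settle whether the numbers pair the animals.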

Other observations

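Among the genes that act with the members, Ctnnb1 (beta-catenin), which links cadherins to actin and acts in Wnt signalling, had 10.75, 10.16 and 10.75 in clozapine mice, 10.96, 10.74 and 10.87 in haloperidol mice, and 11.02, 10.47 and 10.21 in control mice. The groups overlapped, and its differences were 0.29 ± 0.23 for haloperidol minus control and -0.30 ± 0.23 for clozapine minus haloperidol (SE, n = 3 per group). Fyn, a kinase that acts downstream of Ncam1 and contactins, had 8.14, 8.14 and 8.05 in clozapine mice, 8.35, 8.57 and 8.32 in haloperidol mice, and 7.74, 8.09 and 8.47 in control mice. Its controls spanned the drug values of all but the highest haloperidol array, and the haloperidol difference was 0.32 ± 0.17, with an unadjusted p of 0.105 by limma.

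Dcx (doublecortin), a microtubule protein of young neurons known to bind neurofascin, had 6.27, 5.23 and 5.31 in clozapine mice, 6.52, 6.06 and 6.01 in haloperidol mice, and 5.86, 6.51 and 6.02 in control mice. Clozapine 2 and 3 were the lowest arrays and clozapine 1 lay among the others. The differences were -0.53 ± 0.30 from control and -0.59 ± 0.30 from haloperidol, with unadjusted p of 0.121 and 0.0871 by limma. The olfactory bulb marker Eomes had 5.17, 3.79 and 4.06 in clozapine mice, 5.78, 5.17 and 4.92 in haloperidol mice, and 3.76, 5.56 and 5.36 in control mice. Clozapine 2, clozapine 3 and control 1 were the lowest arrays of Dcx, and also of Eomes and of the olfactory bulb marker Th. Control 1 was the lowest array of both markers, whereas clozapine 2 was the lowest of Dcx. The part of olfactory bulb tissue in the Dcx values was not tested. Crk, an adaptor of Eph signalling, lay 0.27 ± 0.11 higher with clozapine than with haloperidol. Its unadjusted p was 0.0354 and its adjusted p 0.915 by limma. Crk lay below the median level of 6.23, and its clozapine arrays all lay above its haloperidol arrays, as in 15.2% of all probe sets. Tiam1 was the other listed gene with an unadjusted p under 0.05 between the drugs. It lay at -0.23 ± 0.091, with an unadjusted p of 0.0367 and an adjusted p of 0.915 by limma.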
